A study of Mus musculus with 8 samples.

Results

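Killer cell lectin-like receptors are surface proteins that natural killer cells and antigen-experienced CD8 T cells use to read the health of other cells. The genes described here are Klrc1, Klrc2, Klrd1, Klrk1, Klrg1, Klrg2, Klre1 and Klrb1c, and every probe set that the platform annotation assigns to one of these 8 symbols was taken. There were 10 such probe sets among 45037 that are not controls. Of the 10, 8 carried 1 symbol, and 7 of those were bright enough to be tested, which left 6 genes (Klrc1, Klrd1, Klrk1, Klre1, Klrg1 and Klrg2) among 12520 tested genes. The only probe set of Klrc2 alone was too dim to be tested. Klrb1c was read by a single probe set that the annotation also assigns to Klrb1b, and another probe set was shared by Klrc3 and Klrc2, so both are reported as shared and were not tested as genes.

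The study asked how loss of PKCθ, or of p50 and cRel together, alters gene expression in stimulated CD8 T cells. PKCθ is a kinase that links the T cell receptor to the transcription factor NF-kB, of which p50 and cRel are subunits. There were 4 groups of 2 arrays each: p50 cRel DKO T cells with N4, PKCθ KO T cells with N4, wild-type (WT) T cells with N4, and WT T cells with dendritic cells that carried no added peptide (WT UN, called non-pulsed here). N4 stands for dendritic cells grown from bone marrow and loaded with the ovalbumin peptide SIINFEKL.

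All T cells came from C57BL/6 spleens by positive bead selection for CD8, met 1 dendritic cell per 10 T cells, and were harvested after 18 h by removing cells that carry CD11c. The sources used here give neither the age nor the antigen receptor of the mice, and do not state whether the alleles were deleted in T cells only. No knockout culture without peptide was analysed here, so a knockout difference cannot be divided into a difference before and after stimulation. Whether both arrays of a group stand for separate mice or cultures is unlabelled, so the p-values measure the spread between these arrays, which may be technical.

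As background, the receptors work in partnerships. Klrd1 encodes CD94, which pairs either with NKG2A, the inhibitory receptor encoded by Klrc1, or with NKG2C, the activating receptor encoded by Klrc2, and these pairs read the non-classical MHC molecule Qa-1. Klrk1 encodes NKG2D, an activating receptor for stress-induced ligands that signals through the adaptors encoded by Hcst and Tyrobp. Klrg1 encodes an inhibitory receptor for cadherins and marks terminally differentiated effector CD8 T cells, whereas Klre1 encodes a receptor of mouse natural killer cells that pairs with products of the Klri genes. Klrb1c encodes NK1.1, the classical natural killer cell marker of C57BL/6 mice.

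Klre1, Klrd1, Klrk1, Klrc3, Klrc2 and Klrc1 lie side by side in that order on mouse chromosome 6, within the gene cluster called the natural killer gene complex. The 250 bases before the start are shown for Klrc1, the member that passed the test between the double knockout and WT N4, and for Klrk1, the member whose levels ran most closely with it. Both are 5′ to 3′ on the gene's own strand (minus), from RefSeq on build GRCm38.p6, and cover chr6:129678974-129679223 for Klrc1 and chr6:129623865-129624114 for Klrk1. Capitals mark matches to the RUNX letters TGTGGT on either strand.
Klrc1: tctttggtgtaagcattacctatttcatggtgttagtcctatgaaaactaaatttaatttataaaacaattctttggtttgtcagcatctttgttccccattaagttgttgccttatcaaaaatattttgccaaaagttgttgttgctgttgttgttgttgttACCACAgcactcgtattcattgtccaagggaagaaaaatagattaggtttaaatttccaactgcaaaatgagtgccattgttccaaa
Klrk1: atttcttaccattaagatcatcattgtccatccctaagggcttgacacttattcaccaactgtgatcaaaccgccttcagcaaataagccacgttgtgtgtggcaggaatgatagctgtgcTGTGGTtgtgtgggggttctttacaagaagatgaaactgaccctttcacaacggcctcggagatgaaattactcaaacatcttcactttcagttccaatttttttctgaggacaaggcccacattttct
Neither window held a simple form of the NF-kB motif (GGG and CC with any 5 bases between them), nor the letters TGANTCA (AP-1) or GGTGTG (T-box), searched on both strands. The RUNX letters were added to the search after the windows had been read, and Klrc1 and Klrk1 each held 1 match. Because of that choice, these matches cannot be weighed against a share over all windows. The RUNX letters also occurred in windows of Klrb1c, Klrc2 and Klre1, and not in that of Klrg2. Among 32851 windows of the same length in the table, 45.8% held the NF-kB letters, 6.75% the AP-1 letters, 16.3% the T-box letters and 14.0% the RUNX letters. The NF-kB and T-box letters overlap in places, as in Klrg2, whose window was the only one among the members to hold either. Windows were present for 6 of the 8 listed genes, not for Klrd1 and Klrg1. A match is a description of the letters and shows neither binding nor use.

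Signals are given as log2(signal + 16), on which a probe set with no signal reads 4 and changes of dim genes are understated. In the deposited values every array had the same trimmed mean, and the arrays had median signals of 33.6 to 70.3. Rel, which encodes cRel, read 6.19 and 5.92 in the p50 cRel DKO against 9.82 and 9.53 in WT N4. Prkcq, which encodes PKCθ, read 11.00 and 10.75 in the PKCθ KO against 11.74 and 11.35 in WT N4 and did not pass the test (limma adjusted p = 1.00). The sources used here do not place its probe set inside or outside the deletion, so it does not check that label. Transcripts of the Y chromosome divided the genotypes. Eif2s3y read 5.42 and 5.88 in the p50 cRel DKO, 6.73 and 5.51 in the PKCθ KO, 10.78 and 11.20 in WT N4, and 11.06 and 10.65 in WT non-pulsed cells, and Kdm5d and Uty were likewise high on the WT arrays alone. Xist, the RNA that coats a silenced X chromosome, read 12.27 to 12.57 on the 4 knockout arrays, against 5.18 and 6.65 in WT N4, and 6.05 and 11.84 in WT non-pulsed cells, so that WT non-pulsed number 2 was high in both Xist and Eif2s3y. Each comparison of a knockout with WT N4 is therefore also one between arrays that differ in these transcripts, and genotype and sex-linked signal cannot be told apart. With Xist at 6.05 and 11.84, the 2 WT non-pulsed arrays were not 1 RNA sample read again.

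The cultures were checked for CD8 T cells and for natural killer cells, which express the same receptors. The 7 tested of 8 listed CD8 T cell markers averaged 12.83 and 12.52 in the p50 cRel DKO, 12.73 and 12.72 in the PKCθ KO, 12.51 and 12.46 in WT N4, and 11.72 and 11.97 in WT non-pulsed cells. Of 15 natural killer cell markers 12 had a named probe set and 5 passed the brightness filter. While 0 of the 12 were at a signal of 0, this does not show that all were detected. S1pr5 read between 4.11 and 4.66 on the 8 arrays, Cma1 between 4.14 and 4.43, and Khdc1a between 4.07 and 5.01. The natural killer receptor gene Ncr1 read between 4.12 and 5.68 on the 8 arrays and the integrin gene Itga2 between 4.29 and 5.47, both below the filter level of 5.38 on average. Both Ncr1 readings of the PKCθ KO (5.42 and 5.68) lay above those of WT N4 (4.53 and 4.12). Other listed markers differed between groups in their own ways. Cd244a read 6.93 and 6.49 in WT non-pulsed cells against 4.26 and 4.22 in WT N4. The receptor gene Klra8, below the filter on average, read 4.64 and 4.57 in the p50 cRel DKO and 4.18 and 6.29 in the PKCθ KO. Its readings were 5.14 and 4.24 in WT N4, and 6.08 and 6.10 in WT non-pulsed cells. Eomes read 8.09 and 8.21 in the p50 cRel DKO and 8.90 and 9.40 in the PKCθ KO. For WT N4 it read 8.49 and 8.34, and for WT non-pulsed cells 7.64 and 9.67. Gzma read 5.97 and 5.61 in the p50 cRel DKO and 7.49 and 10.03 in the PKCθ KO. For WT N4 its readings were 7.04 and 10.57, and for WT non-pulsed cells 9.01 and 9.48. The summed signal of the 12 markers was 14205 and 11416 in the p50 cRel DKO, 10652 and 9513 in the PKCθ KO, 8988 and 5226 in WT N4, and 18702 and 13800 in WT non-pulsed cells. The highest readings among them with N4 were those of the cytokine gene Xcl1, which activated CD8 T cells also express. In WT non-pulsed cells the highest were those of Tyrobp and Fcer1g, signalling chains shared with myeloid cells. In these bulk samples, fewer cells of a type and less RNA per cell cannot be told apart.

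Klrc1, the gene of inhibitory NKG2A, read 11.92 and 12.21 in the p50 cRel DKO, 10.80 and 11.21 in the PKCθ KO, 10.12 and 9.77 in WT N4, and 7.57 and 8.39 in WT non-pulsed cells. No array of one group overlapped with an array of another, and the levels stepped down from the double knockout to WT non-pulsed cells. As means these were 12.07 ± 0.21, 11.01 ± 0.29, 9.95 ± 0.25 and 7.98 ± 0.58 (SD, n = 2 each) in the same order of groups.

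**Figure D1:**
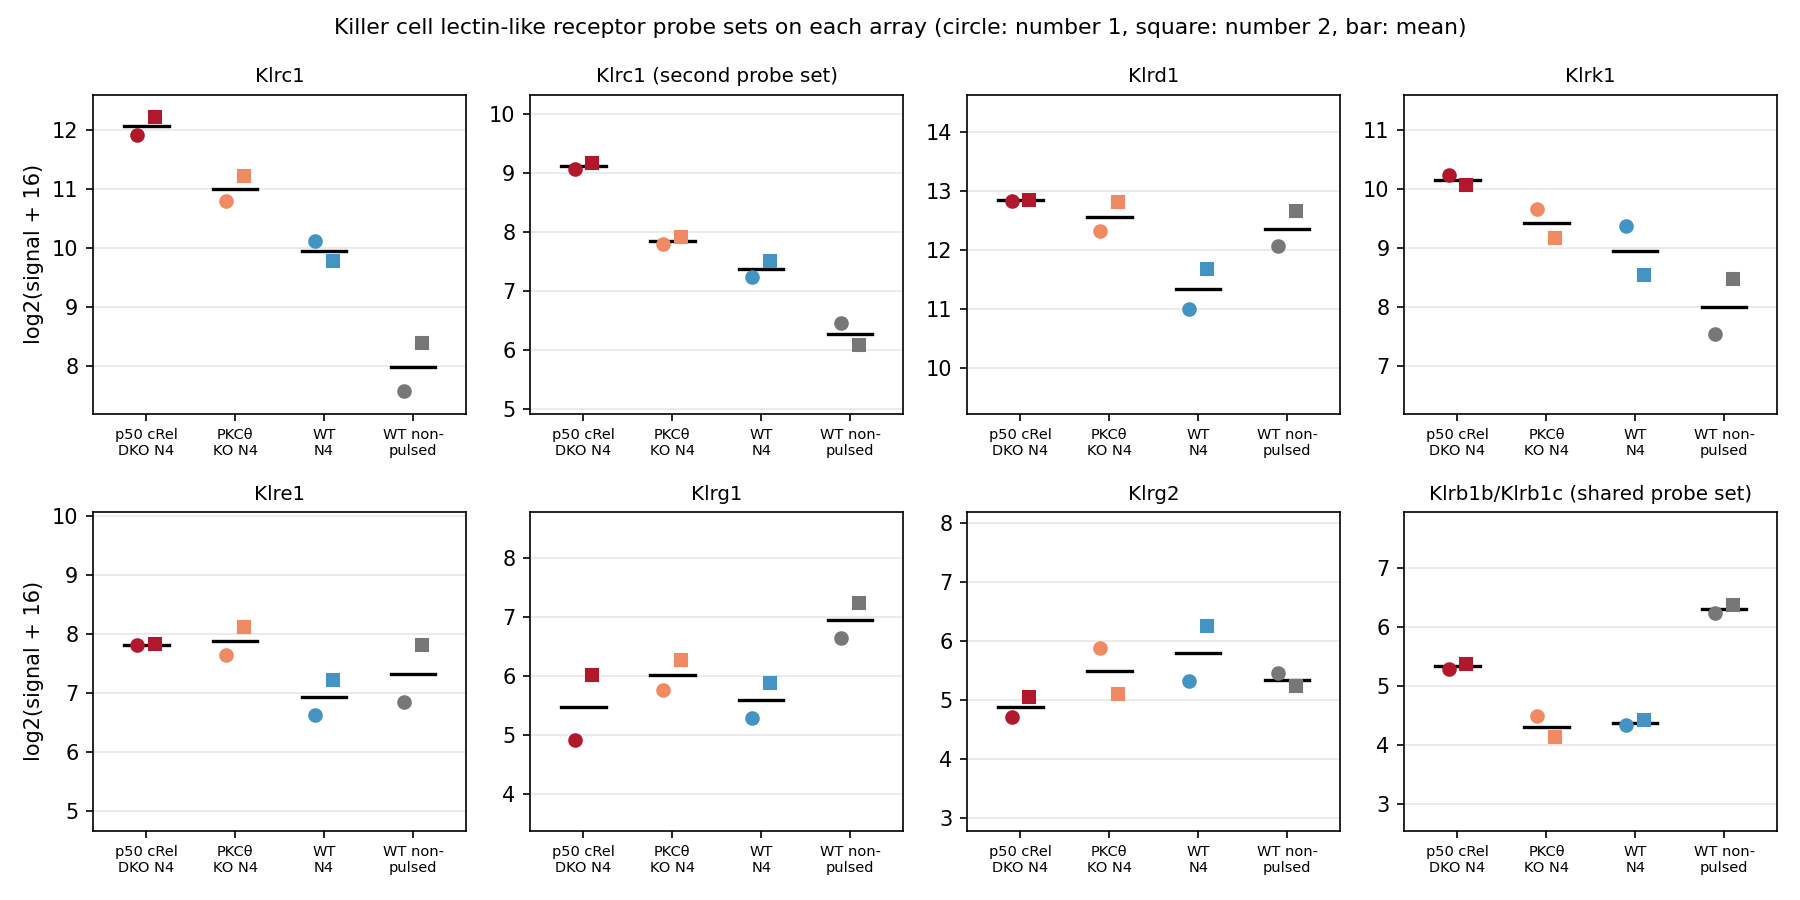
Levels of 8 probe sets of the killer cell lectin-like receptors as log2(signal + 16), 1 panel each with its own level range of the same height, for the 4 groups (circle, number 1; square, number 2; bar, mean of the 2 arrays). Klrc1 on both probe sets stands highest in the p50 cRel DKO and lowest in WT non-pulsed cells, Klrd1 is lowest in WT N4 cells (11.00 and 11.67), and Klrg1 and the shared Klrb1b/Klrb1c probe set are highest in WT non-pulsed cells.

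In the p50 cRel DKO, Klrc1 was the single member of the 6 tested that differed from WT N4 past the threshold (an adjusted p under 0.05 from limma over all 12520 genes). It was 2.12 higher (SE 0.28, limma adjusted p = 0.0180), a 4.35-fold difference, and by 1.80 within the arrays of number 1 and 2.44 within number 2. Of all tested genes 0.519% were called in this comparison, 0.248% higher and 0.272% lower in the double knockout. With the replicate number as a block, 2 of the 6 members were called (Klrc1 and Klrd1), and 200 in place of 65 of all tested genes. A second probe set of Klrc1 read 9.06 and 9.16 in the p50 cRel DKO against 7.23 and 7.51 in WT N4, and it too was higher when each probe set was tested on its own (1.74, limma adjusted p = 0.0429). When every probe set was tested and none was filtered out, neither Klrc1 probe set passed (limma adjusted p of 0.0562 and 0.0678).

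Besides the unfiltered fit of every probe set above, 19 alternatives were tried for Klrc1. The size of its difference varied little over these 19, while its call was lost under 4 of them. It lay between 1.93 and 2.29 under 19 alternatives, with limma adjusted p from 8.28e-05 to 0.197. The call was lost when either array of the double knockout was left out (limma adjusted p = 0.131 without number 1 and 0.197 without number 2). It was also lost without WT N4 number 2 (limma adjusted p = 0.0968) and with a variance prior that has no trend (limma adjusted p = 0.0708).

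Klrd1, which encodes the CD94 partner of NKG2A, read 12.83 and 12.85 in the p50 cRel DKO, 12.31 and 12.81 in the PKCθ KO, 11.00 and 11.67 in WT N4, and 12.06 and 12.65 in WT non-pulsed cells. WT N4 was lowest on both arrays, and the other 3 groups lay close together. Klrd1 was 1.50 higher in the p50 cRel DKO than in WT N4 (SE 0.27), 2.83-fold, which did not pass (limma adjusted p = 0.0677). With the replicate number as a block the same difference passed (limma adjusted p = 0.00357). It also passed with only these 2 groups in the fit (limma adjusted p = 0.0358) and with arrays centred on the CD8 T cell markers (1.31, limma adjusted p = 0.00304), and over its 19 alternatives the limma adjusted p lay between 0.00304 and 0.420.

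Klrk1, the gene of activating NKG2D, read 10.24 and 10.07 in the p50 cRel DKO, 9.66 and 9.16 in the PKCθ KO, 9.36 and 8.54 in WT N4, and 7.54 and 8.47 in WT non-pulsed cells. The double knockout was highest on both arrays, and the PKCθ KO and WT N4 arrays overlapped. The difference of the double knockout from WT N4 was 1.21 (SE 0.36, 95% interval 0.38 to 2.03, limma adjusted p = 0.349), which did not pass.

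Klre1 read 7.81 and 7.83 in the p50 cRel DKO, 7.64 and 8.12 in the PKCθ KO, 6.63 and 7.23 in WT N4, and 6.85 and 7.82 in WT non-pulsed cells. WT N4 again held the lowest array, and the WT non-pulsed arrays spanned most of the range. The difference between the p50 cRel DKO and WT N4 was 0.89 (SE 0.36, limma adjusted p = 0.696).

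Klrg1, the inhibitory receptor of terminally differentiated effectors, read 4.92 and 6.02 in the p50 cRel DKO, 5.76 and 6.26 in the PKCθ KO, 5.28 and 5.88 in WT N4, and 6.64 and 7.23 in WT non-pulsed cells. All arrays with N4 lay below both WT non-pulsed arrays, and the 3 groups with N4 overlapped. The double knockout differed from WT N4 by -0.11 (SE 0.45, 95% interval -1.14 to 0.92), an interval that leaves room for a change of about the size seen for Klre1 in either direction.

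Klrg2, a little-studied relative of Klrg1, stood just above the brightness filter with a mean of 5.38 over the 8 arrays. It read 4.72 and 5.06 in the p50 cRel DKO, 5.88 and 5.10 in the PKCθ KO, 5.33 and 6.26 in WT N4, and 5.46 and 5.25 in WT non-pulsed cells. It differed by -0.91 between the p50 cRel DKO and WT N4 (SE 0.44, limma adjusted p = 0.903) and passed the test in none of the 6 comparisons, where its unadjusted limma p was 0.0723 at the lowest.

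Of the 6 tested members, 4 were higher in the p50 cRel DKO than in WT N4 within both replicate numbers and 1 was lower within both. Such agreement was not counted over all tested genes, so these counts have no background. The median difference of the 6 members was 1.05, against -0.00 over all tested genes. At an unadjusted limma p under 0.05, 4 of the 6 members (Klrc1, Klrd1, Klrk1 and Klre1) and 788 of all tested genes (6.29%) differed. The 4 lie in 1 stretch of the chromosome and were read on the same arrays, so their values are not independent of each other.

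**Figure D2:**
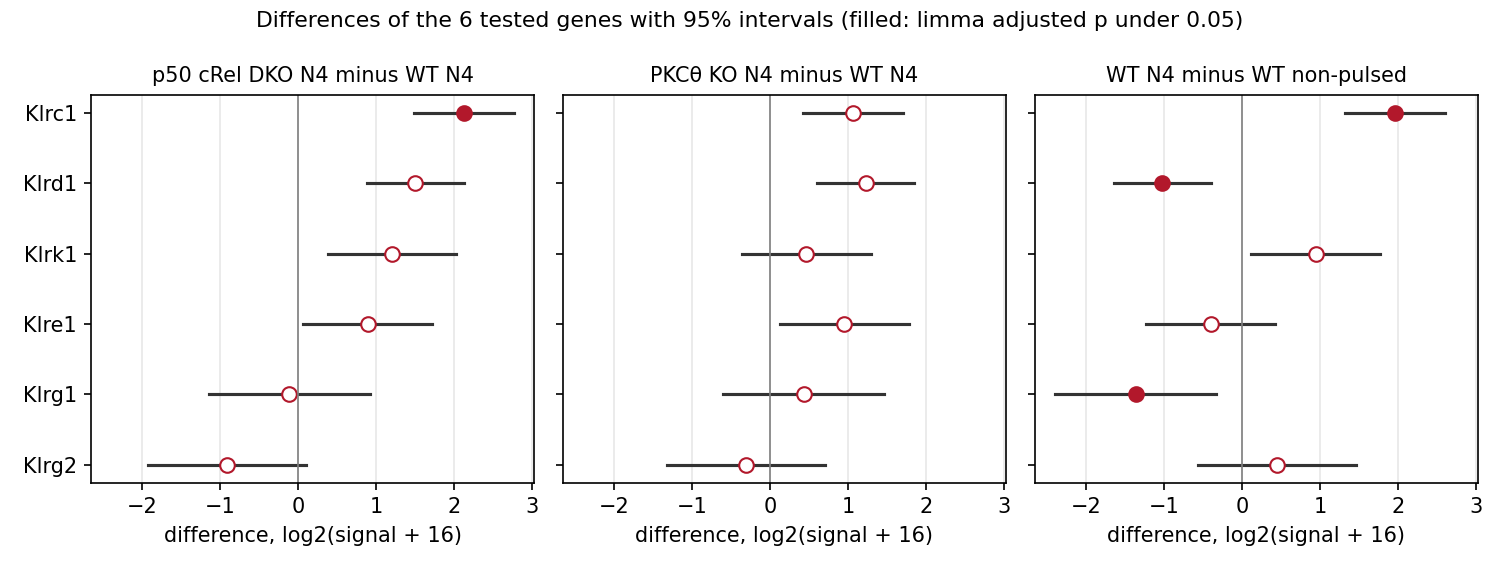
Difference of each of the 6 tested genes in log2(signal + 16) with its 95% interval from the limma fit, for the p50 cRel DKO minus WT N4, the PKCθ KO minus WT N4, and WT N4 minus WT non-pulsed cells (filled points, limma adjusted p under 0.05). Klrc1 is the filled point in the first panel at 2.12, none is filled in the second, and Klrc1 (1.96), Klrd1 (-1.02) and Klrg1 (-1.36) are filled in the third.

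In the PKCθ KO, 0 of the 6 members differed from WT N4 past the threshold in limma, in a comparison that called 0.024% of all tested genes, or 3 genes. All 3 were Y-linked genes that were lower in the PKCθ KO, namely Eif2s3y, Uty and Kdm5d. Klrc1 was 1.06 higher (SE 0.28, limma adjusted p = 1.00), by 0.68 within number 1 and 1.44 within number 2. Klrd1 was 1.22 higher (SE 0.27, limma adjusted p = 0.625), by 1.31 and 1.13 within the numbers. The other differences were 0.95 for Klre1, 0.46 for Klrk1, 0.43 for Klrg1 and -0.31 for Klrg2. The CD8 T cell marker genes Cd8a and Cd8b1 were 0.78 and 0.77 higher in the PKCθ KO, also not called. The median difference of the 7 tested CD8 T cell markers was 0.18.

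Both arrays of the PKCθ KO stood above both arrays of WT N4 for Klrc1, Klrd1 and Klre1, and none of these differences passed. Separation of 2 arrays from 2 was not counted over all tested genes, so it is a description only. At an unadjusted limma p under 0.05 the count was 3 of the 6 members (Klrc1, Klrd1 and Klre1) and 371 of all tested genes (2.96%). Within both replicate numbers 5 of the 6 were higher, and the median difference of the 6 was 0.71 against -0.02 over all tested genes. The share of all tested genes that were higher within both numbers was not counted, so the 5 cannot be set against a background. The PKCθ KO and the p50 cRel DKO were compared with the same WT N4 arrays, so a low or high reading there enters both comparisons.

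Set directly against each other, the p50 cRel DKO and the PKCθ KO differed past the threshold in 0 of the 6 members, while 0.431% of all tested genes were called, 0.24% higher and 0.192% lower in the double knockout. With the replicate block 152 in place of 54 of all tested genes were called, and still 0 of the 6 members. Klrc1 was 1.06 higher in the double knockout (SE 0.28, 95% interval 0.42 to 1.70, limma adjusted p = 0.292), by 1.12 within number 1 and 1.00 within number 2. It passed with only these 2 groups in the fit (limma adjusted p = 0.0459), and over 19 alternatives its limma adjusted p lay between 0.0459 and 0.956. For Klrd1 the difference was 0.28 (95% interval -0.34 to 0.90) and for Klrk1 it was 0.74 (95% interval -0.08 to 1.56). The test therefore does not show that any member responded differently to the 2 genotypes. Of the members 1, Klrc1, had an unadjusted limma p under 0.05, as did 897 of all tested genes (7.16%).

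In WT cells, N4 went with higher Klrc1 and lower Klrd1 and Klrg1 relative to non-pulsed cells. In this comparison 40.7% of all tested genes were called, 17.2% higher and 23.5% lower, so that 1 member higher and 2 lower of 6 is close to the background. The comparison also changes which other cells contribute RNA. Of the listed markers, 11 of 11 tested for B cells, 14 of 15 for dendritic cells and macrophages and 7 of 7 for neutrophils were lower in WT N4. The summed B cell signal was 3150 and 1044 in WT N4 against 55011 and 38293 in WT non-pulsed cells. It was 3482 and 3435 in the p50 cRel DKO and 4153 and 2526 in the PKCθ KO. WT N4 number 2 thus held the least B cell signal among the arrays with N4. The part of these shifts in the receptor differences was not tested.

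Klrc1 was 1.96 higher in WT N4 than in WT non-pulsed cells (SE 0.28, limma adjusted p = 0.000782), 3.90-fold. It passed under all 19 alternatives, with differences from 1.32 to 2.37 and limma adjusted p from 0.000197 to 0.00553. The second probe set was 1.11 higher (limma adjusted p = 0.0101), with 7.23 and 7.51 in WT N4 against 6.45 and 6.07 in WT non-pulsed cells.

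Klrd1 was 1.02 lower in WT N4 (difference -1.02, SE 0.27, limma adjusted p = 0.0163), opposite in direction to its partner Klrc1. The call was lost without WT N4 number 1 (-0.68, limma adjusted p = 0.107), without WT non-pulsed number 2 (-0.72, limma adjusted p = 0.105) and when arrays were centred on their medians (-0.62, limma adjusted p = 0.121). Over its 19 alternatives the limma adjusted p lay between 3.80e-06 and 0.121.

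Klrg1 differed by -1.36 (SE 0.45, limma adjusted p = 0.0405). It lost its call under quantile normalization (limma adjusted p = 0.0702), median centring, a pseudocount of 1 and 5 further alternatives, including the omission of either WT non-pulsed array or WT N4 number 1. Over 18 alternatives the limma adjusted p lay between 0.00107 and 0.203.

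Klrk1 was 0.95 higher in WT N4 and did not pass (limma adjusted p = 0.0668). Its difference was 1.82 within number 1 and 0.07 within number 2. It passed under quantile normalization (1.31, limma adjusted p = 0.0190), under median centring (1.35, limma adjusted p = 0.0364), without WT non-pulsed number 2 (1.41, limma adjusted p = 0.0227) and without WT N4 number 2 (1.36, limma adjusted p = 0.0261).

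Klre1 differed by -0.40 (limma adjusted p = 0.425), a value that was 0.10 under quantile normalization and -1.04, a call (limma adjusted p = 0.0194), with arrays centred on the CD8 T cell markers. The difference of Klrg2 was 0.45 (limma adjusted p = 0.470). These scalings moved the median of all genes as well, which was -0.10 on the scale used here, 0.09 under quantile normalization and 0.30 under median centring. Of the called genes 42.3% were higher, against 52.6% under quantile normalization, 61.1% under median centring and 6.59% with arrays centred on the CD8 T cell markers, which moved the median of all genes to -0.74.

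Against WT non-pulsed cells, both knockouts with N4 had more Klrc1 and Klrk1 signal, in comparisons where genotype and peptide differ together. Klrc1 was 4.09 higher in the p50 cRel DKO (limma adjusted p = 3.72e-05), 17.0-fold, and 3.03 higher in the PKCθ KO (limma adjusted p = 0.000111), 8.14-fold. Klrk1 was 2.15 higher in the p50 cRel DKO (limma adjusted p = 0.00189) and 1.41 higher in the PKCθ KO (limma adjusted p = 0.0137).

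The PKCθ KO call for Klrk1 was lost without WT non-pulsed number 1 (0.95, limma adjusted p = 0.0849), without PKCθ KO number 1 (1.16, limma adjusted p = 0.0839) and with arrays centred on the CD8 T cell markers (0.53, limma adjusted p = 0.131). Klrg1 was lower in the p50 cRel DKO than in WT non-pulsed cells (-1.47, limma adjusted p = 0.0304), a call lost without p50 cRel DKO number 1 (-0.92, limma adjusted p = 0.204) or WT non-pulsed number 2 (-1.18, limma adjusted p = 0.166). Members called higher were thus 2 of 6 in each knockout, where 16.5% of all tested genes were higher in either comparison. Under quantile normalization and under median centring the members called higher were 3 of 6 in each knockout. Klre1 was then also called in the PKCθ KO (1.05, limma adjusted p = 0.0195, and 0.96, limma adjusted p = 0.0366) and, under quantile normalization, in the p50 cRel DKO (0.96, limma adjusted p = 0.0284). Under median centring Klrd1 was also called in the p50 cRel DKO (0.88, limma adjusted p = 0.0391). All calls together took in 39.3% of the tested genes in the p50 cRel DKO and 40.6% in the PKCθ KO. Members called lower were 1 of 6 in the p50 cRel DKO, where the share over all tested genes was 22.8%, and 0 of 6 in the PKCθ KO, where it was 24%. With the replicate number as a block, Klrg1 was also called lower in the PKCθ KO (-0.93, limma adjusted p = 0.0231; limma adjusted p = 0.139 without the block). Klrd1 was then called higher in the p50 cRel DKO (0.48, limma adjusted p = 0.0269; limma adjusted p = 0.196 without the block).

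The CD8 T cell markers averaged lower in WT non-pulsed cells through 3 of the 7, Cd5, Cd8a and Cd2, which were called higher in WT N4 (by 2.90, 1.07 and 0.75), while Cd8b1, Cd3e, Cd3d and Cd3g differed by 0.01 to -0.10 and were not called. With that limit on the marker mean, the levels of Klrc1 and Klrk1 were also expressed relative to those markers on the same array. Only changes between arrays can be read from these values, since probe sets differ in brightness. Klrc1 minus the marker mean was -0.91 and -0.31 in the p50 cRel DKO, -1.93 and -1.50 in the PKCθ KO, -2.40 and -2.69 in WT N4, and -4.15 and -3.58 in WT non-pulsed cells. The order of the groups and the lack of overlap were as before. Klrk1 minus the marker mean was -2.59 and -2.46 in the p50 cRel DKO, -3.06 and -3.56 in the PKCθ KO, -3.15 and -3.92 in WT N4, and -4.18 and -3.50 in WT non-pulsed cells. On this scale the WT N4 and WT non-pulsed arrays of Klrk1 overlapped, and the difference between them was 0.30 (limma adjusted p = 0.416). This centring was chosen after the data had been seen.

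**Figure D3:**
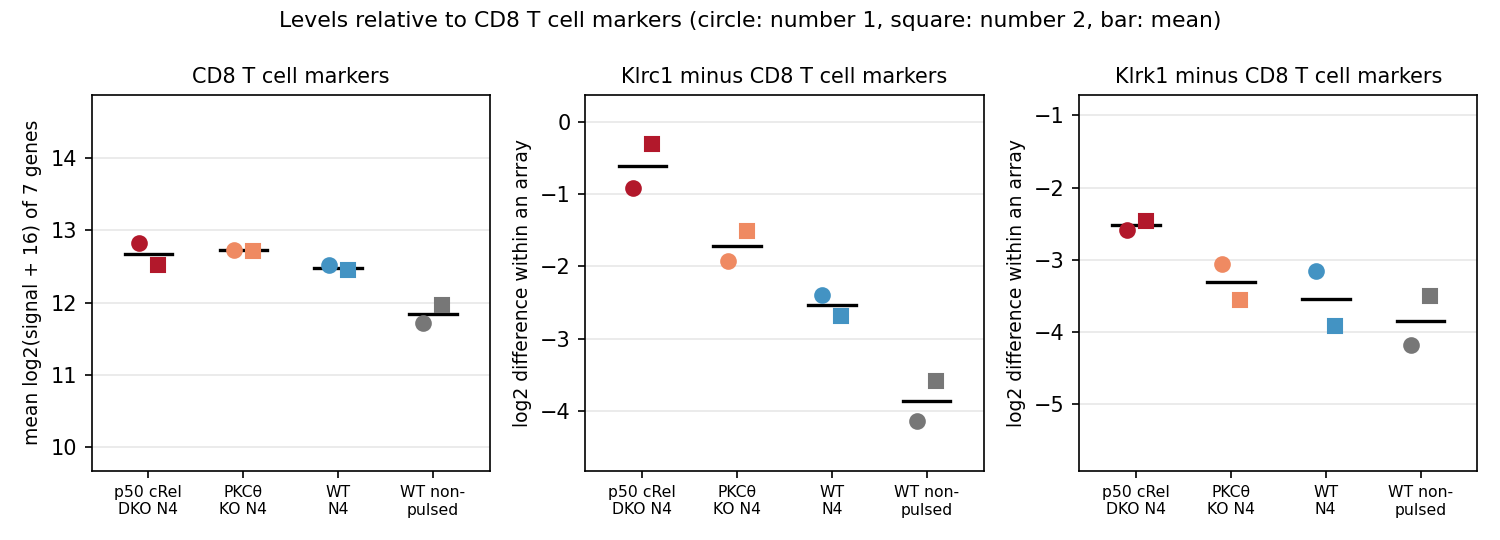
Mean log2(signal + 16) of 7 CD8 T cell markers (left), and Klrc1 (middle) and Klrk1 (right) minus that mean on the same array, for the 4 groups (circle, number 1; square, number 2; bar, mean of the 2 arrays). Klrc1 keeps its 4 separate groups, with the p50 cRel DKO at -0.91 and -0.31 and WT N4 at -2.40 and -2.69, whereas the WT N4 and WT non-pulsed arrays of Klrk1 overlap.

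The members that could not be tested as genes averaged below the filter level of 5.38 over the 8 arrays. Their means were 4.22 for Klrc2, 5.06 for the probe set shared by Klrc3 and Klrc2, and 5.08 for that shared by Klrb1b and Klrb1c. Klrc2, the gene of activating NKG2C, read between 4.04 and 4.39 on all 8 arrays, close to the value of 4 that stands for no signal. The probe set shared by Klrc3 and Klrc2 read 5.45 and 5.76 in the p50 cRel DKO, 4.87 and 4.97 in the PKCθ KO, 4.45 and 5.01 in WT N4, and 5.0 on both arrays in WT non-pulsed cells. The double knockout was highest on both arrays, by 0.88 over WT N4, without passing when every probe set was tested without the filter (limma adjusted p = 0.915).

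The probe set shared by Klrb1b and Klrb1c (the NK1.1 gene) read 5.29 and 5.37 in the p50 cRel DKO, 4.48 and 4.13 in the PKCθ KO, 4.33 and 4.42 in WT N4, and 6.23 and 6.36 in WT non-pulsed cells. It was lower in WT N4 than in WT non-pulsed cells in the fit without the filter (-1.92, limma adjusted p = 0.00273). The double knockout stood 0.95 above WT N4 (limma adjusted p = 0.702). These values cannot be assigned to one of the genes.

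The neighbours in the natural killer gene complex were read next, to see whether the receptors moved with their surroundings. In chromosome order, Gabarapl1, an autophagy gene that is the nearest tested gene before Klre1, differed by 0.21 between the p50 cRel DKO and WT N4 (limma adjusted p = 1.00). Beyond Klrc1 lie the Ly49 genes, receptors for classical MHC class I, of which Klra17, Klra5 and Klra7 were tested. They differed by 0.31, 1.07 and 1.32 in the same comparison, and none passed (limma adjusted p of 1.00, 0.597 and 0.305). A probe set shared by Klra9 and Klra3 read 7.80 and 7.79 in the p50 cRel DKO, 6.76 and 9.23 in the PKCθ KO, 5.99 and 6.31 in WT N4, and 7.97 and 8.63 in WT non-pulsed cells.

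In a list of the other genes of the complex and other Klr genes, which leaves out the receptor genes above, 12 of 34 genes were tested and 0 were called in the p50 cRel DKO against WT N4, with a median of 0.29. In WT N4 against WT non-pulsed cells, 1 of the 12 was called higher and 7 lower, with a median of -2.01. For all tested genes the shares were 17.2% higher and 23.5% lower. The higher one of the 12 was the early activation gene Cd69 (0.65). Among the 7 lower ones were the myeloid and platelet lectin genes Clec7a (-4.18), Clec1b (-3.36) and Olr1 (-3.20), beside the Klra2 receptor gene (-2.49).

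**Figure D4:**
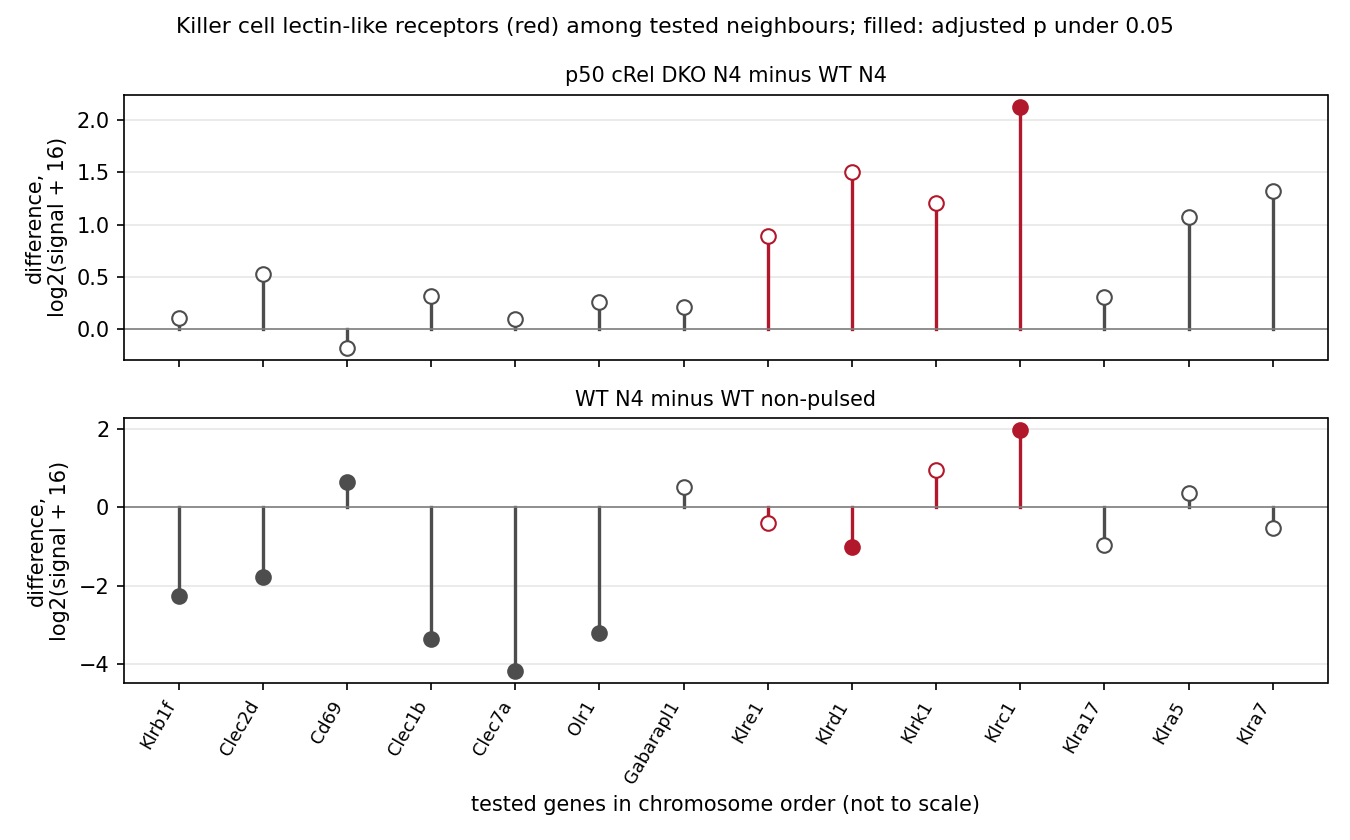
Differences in log2(signal + 16) of the tested genes of the natural killer gene complex in chromosome order, not to scale, for the p50 cRel DKO minus WT N4 (top) and WT N4 minus WT non-pulsed cells (bottom), with the listed receptor genes in red and filled points for a limma adjusted p under 0.05. In the top panel Klre1, Klrd1, Klrk1 and Klrc1 stand at 0.89, 1.50, 1.21 and 2.12, of which Klrc1 is filled, and in the bottom panel Klrc1 (1.96) and Klrd1 (-1.02) are filled in opposite directions.

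The ligands of the receptors were mostly dim or not singly named. The gene of Qa-1, H2-T23, shared its probe sets with a pseudogene, and the brighter of these read between 13.05 and 13.39 on all 8 arrays. The dimmer one read 8.83 and 8.74 in the p50 cRel DKO and 8.08 and 9.21 in the PKCθ KO. Its readings were 8.19 and 9.36 in WT N4, and 9.57 and 9.63 in WT non-pulsed cells. Of the NKG2D ligand genes, Ulbp1 was tested and not called in any comparison listed here. A probe set shared by Raet1e and Raet1d was below the filter and not tested as a gene. It read 6.33 and 6.58 in WT non-pulsed cells and between 4.19 and 4.34 on the arrays with N4. H60c, also below the filter, averaged 4.95 in the p50 cRel DKO, 5.13 in the PKCθ KO, 4.88 in WT N4 and 5.52 in WT non-pulsed cells. Cdh1, which encodes the Klrg1 ligand E-cadherin, was below the filter and read 5.32 and 5.66 in the p50 cRel DKO, 4.17 and 4.83 in the PKCθ KO, 4.47 and 4.08 in WT N4, and 6.50 and 7.48 in WT non-pulsed cells. Clec2d and Clec2i, which encode ligands of the Klrb1 receptors, were called lower in WT N4 than in WT non-pulsed cells (-1.77 and -2.89) and in neither knockout against WT N4.

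Among 18 tested adaptor and proximal signalling genes, 0 were called in either knockout against WT N4. The NKG2D adaptor gene Hcst averaged 8.96 in the p50 cRel DKO, 9.24 in the PKCθ KO, 8.95 in WT N4 and 10.54 in WT non-pulsed cells, and it was 1.59 lower in WT N4 than in WT non-pulsed cells (difference -1.59, limma adjusted p = 0.000576). In that comparison 3 of the 18 were called higher (Zap70 by 1.56, Sh2d1a by 1.04 and Cd247 by 0.67) and 9 lower. All tested genes gave 17.2% higher and 23.5% lower. The adaptor gene Tyrobp (-5.32) and the kinase gene Syk (-4.06) were lower, and both are also genes of myeloid and B cells.

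Regulators of effector and memory fate were compared next, since some of them are known to control such receptors. In the p50 cRel DKO, 1 of 21 differed from WT N4, the cytokine signalling gene Stat5a (-0.91, limma adjusted p = 0.0242), and in the PKCθ KO 0 of 21 did in limma. Tbx21, which encodes the effector regulator T-bet, differed by 0.13 in the p50 cRel DKO and by 0.04 in the PKCθ KO from WT N4. In WT N4 against WT non-pulsed cells, 3 were higher, among them Tbx21 (2.61, limma adjusted p = 0.000156), and 8 were lower, among them the repressor genes Bcl6 (-3.11), Prdm1 (-2.82) and Zeb2 (-2.26). Over all tested genes 17.2% were higher and 23.5% lower. Whether the fall of B cell and myeloid markers enters these values was not tested.

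Surface markers of effector and memory cells gave 0 of 11 calls in either knockout against WT N4. The cytokine receptor gene Il7r was 1.12 higher in the p50 cRel DKO than in the PKCθ KO (limma adjusted p = 0.0339). With N4 in WT cells 4 were higher, which were Cd28 (2.47), Cd160 (2.21), Il2rb (1.51) and Il15ra (1.37), and 4 lower, which were S1pr1 (-4.12), Cx3cr1 (-3.38), Il7r (-3.29) and Cd44 (-1.03). The shares over all tested genes were 17.2% higher and 23.5% lower. B cell and myeloid markers fell in the same comparison, and their part in these values was not tested. Among the CD8 T cell markers, the adhesion gene Cd2 was lower in the p50 cRel DKO than in WT N4 (-0.98, limma adjusted p = 0.0206).

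Across the 8 arrays the members fell into patterns of their own, given here as descriptions of arrays that share groups and scaling. Klrc1 ran with Klrk1 (Pearson's r 0.94, Spearman's rho 0.90) and Klrd1 with Klre1 (r 0.90, rho 0.86), while Klrc1 and Klrd1, whose proteins form a pair, ran together less closely (r 0.38, rho 0.71). The 3 tested genes with a pattern most like Klrc1 were Mmd (r 0.994), the perforin gene Prf1 (0.992) and the transporter gene Abcg2 (0.991). For Klrk1 they were Itm2a (0.997), Calcb (0.977) and Crtam (0.971), a gene of activated CD8 T cells and natural killer cells. For Klrd1 they were Asic4 (0.949), Bmyc (0.916) and Pyy (0.913).

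The other members were listed by the same rule. For Klre1 the genes most like it were Xist (0.945), the T cell receptor component gene Cd3g (0.918) and Ptbp2 (0.917). By rank these were less alike, with Spearman's rho of 0.64, 0.83 and 0.76. For Klrg1 they were Dusp13 (0.988), Morc3 (0.987) and Pttg1ip (0.986), and for the dim Klrg2 they were Sema3f (0.923), Rnf11 (0.905) and Gorasp1 (0.898).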

How the data were processed

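RNA of 8 samples was read on 1 Affymetrix mouse array each. Each probe set has 1 deposited intensity. The submitters' processing notes name MAS5 and GCOS 1.4, and in the values every array has the same trimmed mean. Symbols came from the platform annotation, updated by Entrez identifier through RefSeq (GRCm38.p6). Signals were taken as log2(signal + 16), probe sets with a mean under the 40th percentile (5.38) were left out, and the probe set of highest mean stood for a gene, which left 12520 genes. All arrays entered 1 limma 3.58.1 model in R 4.3.3 with a coefficient per group (eBayes with trend, 4 residual degrees of freedom). A call needed an adjusted p (Benjamini-Hochberg, over all tested genes) under 0.05. The fit was tested on simulated data.

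The receptor genes and gene lists were chosen with earlier results of these data known. Named genes were every member, Rel, Prkcq, up to 4 genes of a list with the lowest p plus those that close a short count, and the 3 genes most like each member. Xist, the Y-linked genes and the neighbouring genes were named after their values were seen. An array whose title has no number was taken as number 1. Same-numbered arrays deviated together in all 6 pairs of groups (correlation of deviations 0.25 to 0.58 across genes), although the labels do not state a pairing. The main fit held no replicate block, so its p-values and intervals leave this out. The block was tried as an alternative that treats the numbers as a pairing. Xist read 11.84 in WT non-pulsed number 2 and 6.65 in WT N4 number 2, so these same-numbered arrays differed in it. Alternatives were other scalings, pseudocounts, filters, probe set rules, fits, and each array left out. Detection calls were not used here, and the number of arrays limits the precision.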

Additional observations from a re-analysis of the deposited data

How the results depend on the processing

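The number of receptor genes past the test in the p50 cRel DKO against WT N4 was 1. It was 2 with the replicate block, with only the 2 groups compared and with arrays centred on the CD8 T cell markers, and 0 without the variance trend. Leaving out each array in turn gave 0 to 1. For the p50 cRel DKO against the PKCθ KO it was 0, and 1 with only the 2 groups. Over the arrays left out it ranged from 1 (without WT N4 number 1) to 4 (without WT N4 number 2) for WT N4 against WT non-pulsed cells and from 1 to 2 for the PKCθ KO against WT non-pulsed cells, where the lone array of a group is assumed to vary like the other groups. Klrd1 in the PKCθ KO against WT non-pulsed cells was 0.21 and not called. It was called in the opposite direction, at -0.67 (limma adjusted p = 0.0222), with arrays centred on the CD8 T cell markers, and was -0.04 under quantile normalization, 0.61 under median centring and -0.09 to 0.50 with an array left out, none of these called. The block changed the 3 member calls given with the results and no other.

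Counts over all genes moved as well. For the p50 cRel DKO against WT N4 (65) they were 36 under median centring, 200 with the replicate block, 35 without the trend, 173 with CD8 marker centring and 13 to 77 with an array left out (15 and 13 without p50 cRel DKO number 1 and number 2, 35 and 30 without WT N4 number 1 and number 2). For the p50 cRel DKO against the PKCθ KO (54) they were 28 without the filter, 35 with every probe set, 152 with the block, 98 with only 2 groups, 17 without the trend, 114 with marker centring and 0 to 65 with an array left out (0 and 2 without p50 cRel DKO number 1 and number 2, 34 and 13 without PKCθ KO number 1 and number 2). For the PKCθ KO against WT N4 (3) they were 1 under quantile normalization, with a pseudocount of 1 or without the filter, 0 without the trend, 11 with marker centring and 0 to 5 with an array left out (0 without WT N4 number 2, 5 without either WT non-pulsed array). With every probe set the counts against WT non-pulsed cells were 7939 for WT N4 (5101 otherwise), 8142 for the PKCθ KO (5078) and 7705 for the p50 cRel DKO (4917), since more features were tested. With marker centring they were 8415 for the PKCθ KO and 8022 for the p50 cRel DKO, while leaving out each array gave 3546 to 5124 for WT N4, 3761 to 5002 for the PKCθ KO and 3229 to 4987 for the p50 cRel DKO. Marker centring also turned the share of higher calls to 2.89% for the PKCθ KO (40.7% otherwise, 51.8% under quantile normalization, 59.8% under median centring) and 3.28% for the p50 cRel DKO (42.0% otherwise, 52.3% and 59.4% under the same scalings) against WT non-pulsed cells, and to 26.0% (47.7%) for the p50 cRel DKO against WT N4. A filter at the 60th percentile removed Klrg1 and Klrg2. Where no cause is given, it was not tested. Low signals limit what can be seen of Klrc2, which read near 4 on the log2 scale, and of the dim Klrg2 and the shared probe sets.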
